A study of Mus musculus with 2 samples.

Results

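The translation initiation and elongation factors of mouse gastric dysplasia organoids are described here in pyrvinium-treated and DMSO-treated cells. Members were all protein-coding genes of the deposited gene list whose symbol begins with Eif and a digit of 1 to 6, or with Eef and a digit of 1 or 2. The rule took 87 of 32227 genes, 73 of them Eif genes and 14 Eef genes, and 1 further matching symbol, Eif2c5, was left out because it is listed as a long noncoding RNA. Of the 87 members, 66 had at least 20 counts in the libraries together and were given a ratio, 14 had 1 to 4 counts and 7, all numbered copies of Eif1ad, had 0 counts in both libraries.

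The study asked which gene expression changes and which cell populations followed treatment of Meta4 organoids, a dysplastic line from the stomach corpus, with pyrvinium, an anthelmintic drug. One library was made from cells kept with pyrvinium for 1 day, and one from cells kept with the solvent DMSO for 1 day. Both groups carried Mist1-CreERT2Tg/+ and both are labelled as dysplasia-induced, so the control shares these with the treated cells. Mist1-CreERT2 is a tamoxifen-inducible Cre under the Mist1 promoter, which in the stomach corpus is active in chief cells, and the libraries represent 1 organoid line.

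Cytosolic translation begins when eIF2, loaded with GTP and initiator tRNA, joins the small ribosomal subunit together with eIF1, eIF1A, eIF5 and eIF3, while eIF4F recruits the subunit to the capped end of an mRNA. Phosphorylation of the eIF2 alpha subunit by stress-sensing kinases blocks its exchange factor eIF2B and lowers initiation, and the eIF4E-binding proteins, when not phosphorylated by the kinase complex mTORC1, keep eIF4E out of eIF4F. After the subunits join, eEF1A delivers aminoacyl-tRNAs and eEF2 moves the ribosome along the mRNA. Many elongation factor mRNAs, like those of ribosomal proteins, start with a terminal oligopyrimidine (TOP) tract and are translated under mTORC1 control.

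The pyrvinium library had 854 cells with a median of 31517 counts, and the DMSO library had 1602 cells with a median of 18592.5 counts. Their summed counts were 37046673 for pyrvinium and 39980497 for DMSO. Of all barcodes, 12981 were shared between the libraries, but 0 of those kept as cells were. The epithelial markers Epcam, Krt8, Krt18, Krt19, Cdh1 and Cldn7 summed to 5499 counts per 1000000 (CPM) with pyrvinium and 8284 CPM with DMSO, and 2 of these 6, Krt8 and Krt19, were at least 1.5-fold lower with pyrvinium. Immune, fibroblast and red blood cell markers summed to at most 1.46 CPM each in either library, and the endothelial markers, nearly all of them Cdh5, to 60.4 CPM with pyrvinium and 44.1 CPM with DMSO.

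Translation factor transcripts took a similar share of both libraries, with 1.79% of counts in pyrvinium cells and 1.72% in DMSO cells. Few members differed much. Only Eif4ebp1, the best-known repressor of eIF4E, was at least 1.5-fold higher with pyrvinium with its whole counting interval above 1, which is 1 of 66 members, against 7.57% of the 15586 genes with as many counts. At least 1.5-fold lower were Eef1aknmt, Eef2k, Eif4a1 and Eif5a2, which is 4 of 66 members, against 15.5% of all genes. The lower call on Eif5a2 rests on 7 and 19 counts and was made in 2 of 12 other settings of cells, scaling and free RNA, against 12 of 12 for Eef2k and Eef1aknmt, and without it 3 members remain. Of the 6846 genes that reached 10 CPM in either library, 6.34% were higher and 14.9% lower by this rule. At a 2-fold limit 0 members were higher (3.34% of all genes) and 2, Eef1aknmt and Eif5a2, were lower (6.73% of all genes). The median log2 ratio of pyrvinium over DMSO was -0.11 over the members and -0.08 over all genes. With 1 library per group these values compare 2 libraries, no test was possible and no difference has a replicate check. The 95% intervals given with values cover counting error only.

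**Figure D1:**
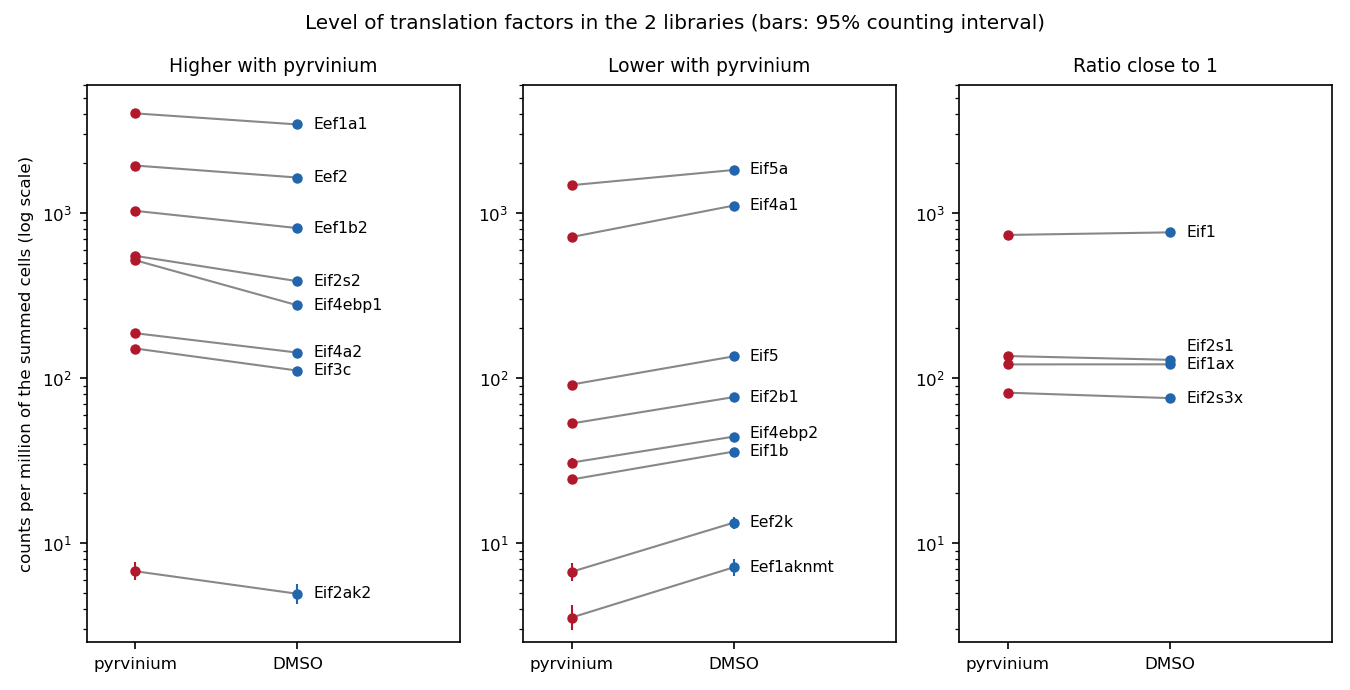
Level of selected translation factors in CPM on a log scale, with the pyrvinium library left of the DMSO library in each panel and bars for the 95% counting interval. Lines for Eif4ebp1 (517 CPM with pyrvinium, 276 CPM with DMSO) and for Eif4a1 (714 CPM with pyrvinium, 1108 CPM with DMSO) slope more steeply than those of Eef1a1 and Eef2.

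Smaller differences with narrow counting intervals were common. The interval of the ratio lay wholly above 1 for 18 members, wholly below 1 for 35 and held 1 for 13. Of all genes with at least 20 counts, 21.7% had an interval above 1 and 33.5% one below 1, and of genes with at least 10 CPM, 32.3% and 45.8%. The Eif genes together summed to 9144 CPM with pyrvinium and 9575 CPM with DMSO, a log2 ratio of -0.07. For the Eef genes the sums were 8741 CPM with pyrvinium and 7623 CPM with DMSO, a log2 ratio of 0.20.

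**Figure D2:**
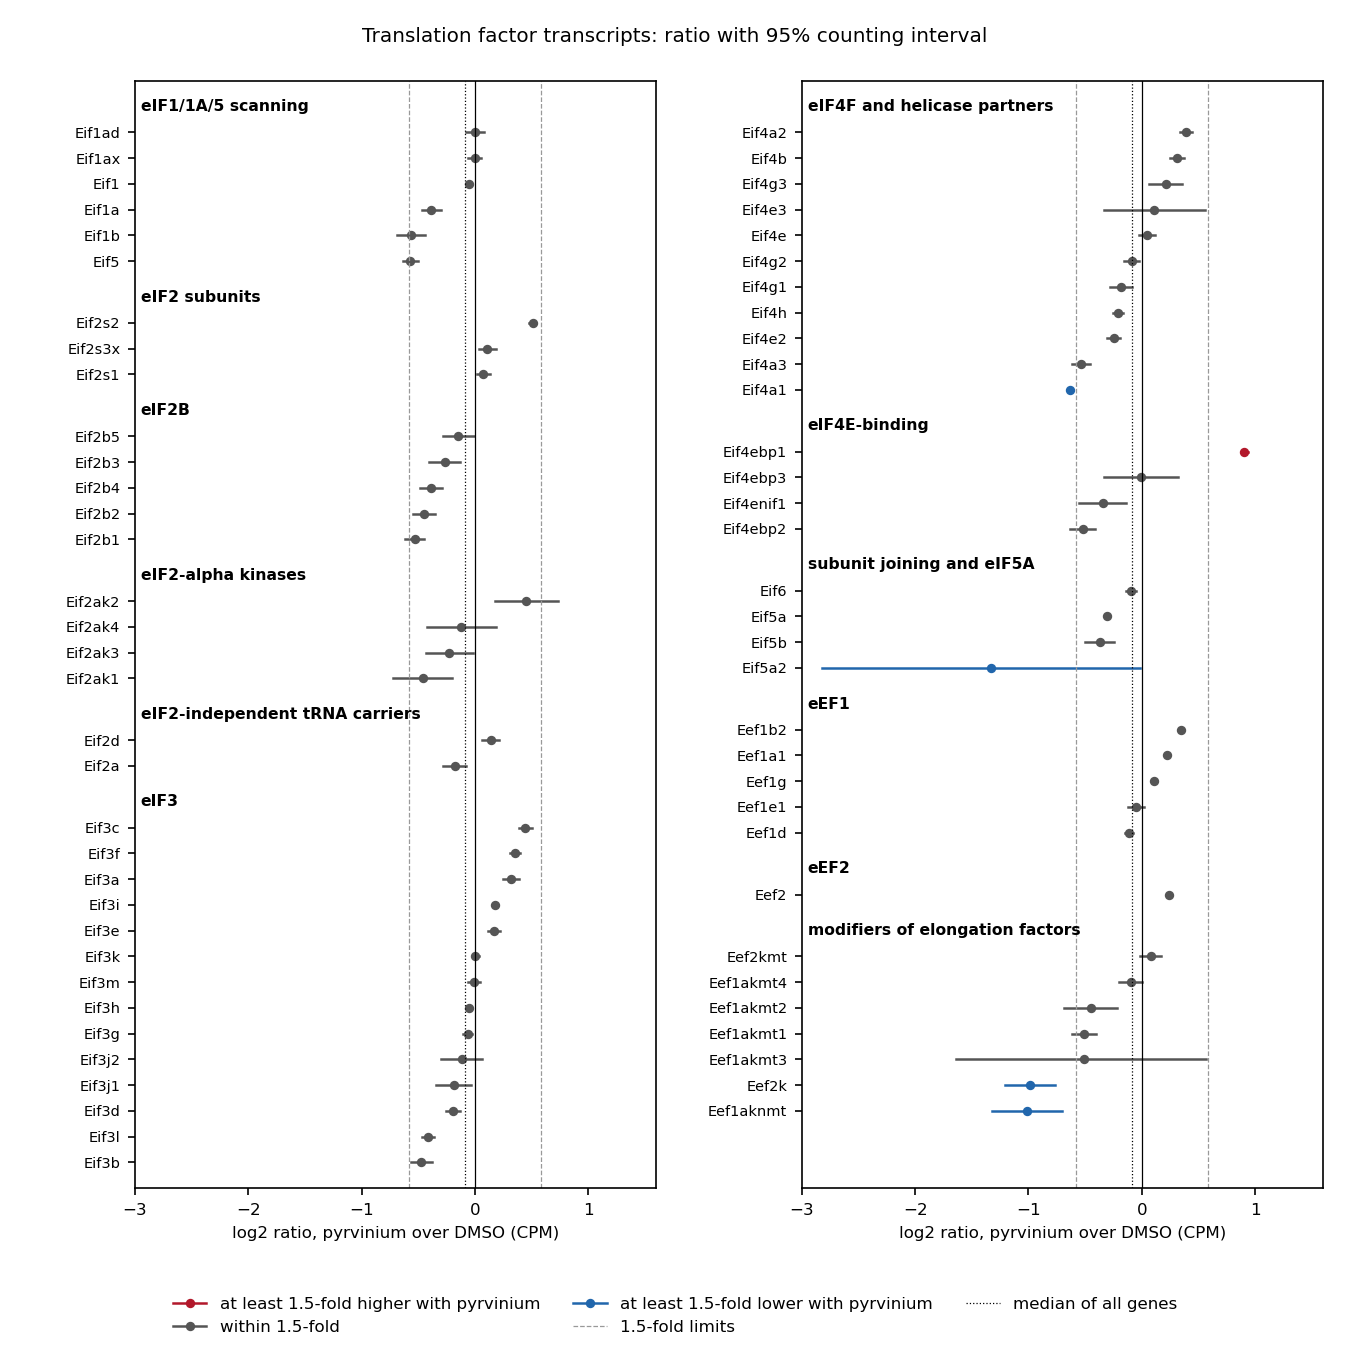
Log2 ratio of pyrvinium over DMSO for the 66 members with at least 20 counts, by factor group, with 95% counting intervals, dashed lines at 1.5-fold and a dotted line at the median of all genes. Eif4ebp1 is the single point beyond the upper dashed line with an interval above 0, the 5 eIF2B subunits all lie left of 0, and the widest interval belongs to Eif5a2, which had 7 counts with pyrvinium and 19 with DMSO.

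The eIF2 subunits and their exchange factor eIF2B lay on opposite sides of 1. Eif2s2, the beta subunit of eIF2, had 549 CPM with pyrvinium and 386 CPM with DMSO, a ratio of 1.42 (interval 1.39 to 1.45). Eif2s1, the alpha subunit that stress kinases phosphorylate, had 136 CPM with pyrvinium and 129 CPM with DMSO, and Eif2s3x, the X-linked gamma subunit, had 81.5 CPM with pyrvinium and 75.5 CPM with DMSO. Eif2s2 thus differed more than its partners in the same complex, whose ratios were 1.05 (1.01 to 1.10) and 1.08 (1.02 to 1.14). Eif2s3y, the Y-linked gamma subunit, had 0 counts with pyrvinium and 4 with DMSO and was given no ratio.

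All 5 eIF2B genes had intervals wholly below 1, with a summed level of 173 CPM with pyrvinium and 229 CPM with DMSO and a median log2 ratio of -0.39. The range ran from -0.53 for Eif2b1, the alpha subunit, at 53.0 CPM with pyrvinium and 76.6 CPM with DMSO, to -0.15 for Eif2b5, the catalytic epsilon subunit, at 21.7 CPM with pyrvinium and 24.0 CPM with DMSO. None reached 1.5-fold. In cells at or below the median count of S and G2M genes in their library, the eIF2B median was -0.10. That of all genes in these cells was -0.09, so eIF2B lay close to the typical gene there.

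The 4 kinases that phosphorylate eIF2 alpha were sparse, at most 9.26 CPM with pyrvinium and 10.8 CPM with DMSO. Eif2ak2, the double-stranded RNA sensor PKR, had 6.75 CPM with pyrvinium and 4.93 CPM with DMSO, a ratio of 1.37 (1.13 to 1.66). Eif2ak1, the heme-regulated kinase HRI, had 5.64 CPM with pyrvinium and 7.75 CPM with DMSO, a ratio of 0.728 (0.608 to 0.870). Eif2ak3, which encodes the endoplasmic reticulum kinase PERK and had the most counts of the 4, had 9.26 CPM with pyrvinium and 10.8 CPM with DMSO, a ratio of 0.855 (0.740 to 0.987). PKR and HRI transcripts were therefore on opposite sides of 1, and Eif2ak4, the amino acid sensor GCN2, had an interval that held 1 (0.745 to 1.14). Eif2d and Eif2a, which can bring initiator tRNA to the ribosome without eIF2, had ratios of 1.10 (1.05 to 1.16) and 0.883 (0.822 to 0.949).

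In the group of factors that scan for the start codon, 4 of 6 genes with enough counts had intervals below 1 and none had one above. The group also takes in Eif1ad by its symbol. Eif5, the GTPase-activating protein of eIF2, was lowest with 91.2 CPM with pyrvinium and 135 CPM with DMSO, a ratio of 0.675 (0.646 to 0.704) just inside the 1.5-fold limit. Eif1, which guards the choice of start codon and had the most counts in the group, had 736 CPM with pyrvinium and 763 CPM with DMSO. Its paralog Eif1b had 24.3 CPM with pyrvinium and 35.8 CPM with DMSO, a log2 ratio of -0.56. The eIF1A genes also parted: Eif1a had 52.6 CPM with pyrvinium and 68.6 CPM with DMSO, while Eif1ax had an interval that held 1. So did Eif1ad, a gene with an eIF1A-like domain.

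The 14 eIF3 genes, which encode the scaffold on the small subunit, spread around 1 with a median log2 ratio of -0.03 and a sum of 3029.8 CPM with pyrvinium and 2928 CPM with DMSO. Intervals were above 1 for 5 genes, below 1 for 6 and held 1 for 3. Eif3c was highest, with 151 CPM with pyrvinium and 111 CPM with DMSO and a ratio of 1.36 (1.31 to 1.42). Eif3b was lowest, with 42.8 CPM with pyrvinium and 59.5 CPM with DMSO and a ratio of 0.721 (0.676 to 0.768). Eif3c and Eif3b both encode subunits of eIF3, so members of 1 complex differed in direction. Eif3i, which had the most counts, stood at 691 CPM with pyrvinium and 610.3 CPM with DMSO, and the ratios of the accessory genes Eif3j1 and Eif3j2 were 0.878 (0.788 to 0.978) and 0.922 (0.812 to 1.05).

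The cap-binding complex eIF4F and its helicase partners summed to 1654 CPM with pyrvinium and 2064 CPM with DMSO, and most of that gap lay in Eif4a1. This main RNA helicase of scanning had 714 CPM with pyrvinium and 1108 CPM with DMSO, which is 1.55-fold lower (ratio 0.645, 0.635 to 0.655). Its close paralog Eif4a2 had 187 CPM with pyrvinium and 143 CPM with DMSO, a ratio of 1.31 (1.27 to 1.36). The helicase genes thus lay on opposite sides of 1, and Eif4a3, the paralog in the exon junction complex, had a log2 ratio of -0.54 with 58.4 CPM with pyrvinium and 84.8 CPM with DMSO.

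The scaffolds also split, with Eif4g1 at 43.7 CPM with pyrvinium and 49.6 CPM with DMSO and Eif4g3 at 21.2 CPM with pyrvinium and 18.3 CPM with DMSO. The cap-binding protein gene Eif4e had 85.8 CPM with pyrvinium and 82.9 CPM with DMSO, with an interval that held 1 (0.985 to 1.09). Of the 11 eIF4F genes with enough counts, 3 had intervals above 1, 6 below 1 and 2 held 1. The lower call on Eif4a1 was lost, with log2 ratios of about -0.55, when libraries were scaled by the median of ratios or without mitochondrial and ribosomal protein genes, or when the mean over cells was taken, and at -0.48 in cells low in S and G2M transcripts.

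The eIF4E-binding proteins parted most of all. Eif4ebp1 had 517 CPM with pyrvinium (19145 counts) and 276 CPM with DMSO (11022 counts), which is 1.87-fold higher (1.83 to 1.92). Eif4ebp2, which encodes a second repressor of eIF4E, had 30.7 CPM with pyrvinium and 44.1 CPM with DMSO, a ratio of 0.696 (0.646 to 0.751). Eif4ebp1 was thus higher while its paralog lay below 1, and Eif4ebp3 had an interval that held 1 at 4.08 CPM with pyrvinium and 4.10 CPM with DMSO. Eif4enif1, which carries eIF4E into the nucleus, had 9.29 CPM with pyrvinium and 11.8 CPM with DMSO. The log2 ratio of Eif4ebp1, 0.91 over all cells, was 0.53 in the 453 pyrvinium and 821 DMSO cells at or below the median count of S and G2M genes, which is under the 1.5-fold limit. The list of 38 S and G2M genes itself summed to 1438 CPM with pyrvinium and 2822 CPM with DMSO, with 34 of 38 at least 1.5-fold lower.

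All 4 genes of subunit joining and eIF5A had intervals below 1. Eif5a, whose protein carries the modified amino acid hypusine and helps ribosomes past difficult peptide bonds, had 1473 CPM with pyrvinium and 1821 CPM with DMSO, a ratio of 0.809 (0.800 to 0.818). Eif5a2, its scarce paralog, had 7 counts with pyrvinium and 19 with DMSO, so its ratio of 0.398 has an interval of 0.141 to 0.988. Eif5b, the GTPase of subunit joining, had 23.1 CPM with pyrvinium and 29.8 CPM with DMSO. Eif6, which keeps free large subunits apart from small ones, had 227 CPM with pyrvinium and 242 CPM with DMSO. Apart from Eif5a2, the differences in this group stayed within 1.5-fold.

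Of the 6 elongation factor genes proper with enough counts, 4 had intervals above 1 (Eef1a1, Eef1b2, Eef1g and Eef2), 1 had one below 1 (Eef1d) and 1 held 1 (Eef1e1). Eef1a1, which delivers aminoacyl-tRNA, had 4011 CPM with pyrvinium and 3437 CPM with DMSO, a ratio of 1.17 (1.16 to 1.18). Eef2, the translocase, had 1937 CPM with pyrvinium and 1638 CPM with DMSO, a ratio of 1.18 (1.17 to 1.19). Of the genes of the eEF1B exchange complex, Eef1b2 was highest with 1029 CPM with pyrvinium and 809 CPM with DMSO, a log2 ratio of 0.35 (0.33 to 0.37). Eef1g lay close to these with a ratio of 1.08 (1.07 to 1.09), whereas Eef1d, another exchange subunit, had 373 CPM with pyrvinium and 403 CPM with DMSO, a ratio of 0.924 (0.903 to 0.946). Eef1e1, which works mainly in the multi-tRNA synthetase complex, had 89.3 CPM with pyrvinium and 92.5 CPM with DMSO. None of these genes reached 1.5-fold, and Eef1a2, the muscle and neuron form of eEF1A, had 3 counts with pyrvinium and 0 with DMSO.

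The genes that modify the elongation factors differed in the other direction, with 4 of 7 intervals below 1, none above and a median log2 ratio of -0.51. Eef2k, the kinase that phosphorylates and inhibits eEF2, had 6.69 CPM with pyrvinium (248 counts) and 13.3 CPM with DMSO (531 counts), which is 1.98-fold lower (ratio 0.504, 0.432 to 0.587). Eef1aknmt, a methyltransferase that modifies eEF1A, had 3.54 CPM with pyrvinium (131 counts) and 7.13 CPM with DMSO (285 counts), which is 2.02-fold lower (ratio 0.496, 0.400 to 0.612). Eef2 and its inhibitory kinase were thus on opposite sides of 1, as were Eef1a1 and this methyltransferase. Eef2kmt, a methyltransferase of eEF2, held 1 (0.987 to 1.13) and had the highest log2 ratio of the group, 0.08.

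Promoter windows from RefSeq (build GRCm38.p6, 250 bases before to 50 after the annotated start) were found for 54 of the 87 members. Eif4ebp1 had no window, so no motif was searched in it. The 4 members at least 1.5-fold lower, with the sparse Eif5a2 among them, all held the letters CACGTG, the E-box bound by Myc and Max, which is why these stretches are shown; capitals mark the E-box and each is printed 5′ to 3′ on the gene's strand. Positions are chr11:69672587-69672632 (minus) for Eif4a1, chr7:120842780-120842825 (plus) for Eef2k, chr1:162548467-162548512 (minus) for Eef1aknmt and chr3:28781115-28781160 (plus) for Eif5a2.
Eif4a1: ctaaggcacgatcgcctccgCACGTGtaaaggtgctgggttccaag
Eef2k: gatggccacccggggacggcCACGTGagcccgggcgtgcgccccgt
Eef1aknmt: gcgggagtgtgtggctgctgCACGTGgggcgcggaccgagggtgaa
Eif5a2: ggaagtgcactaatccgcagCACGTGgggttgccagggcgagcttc
The E-box, a palindrome that reads alike on both strands, was in 14 of the 54 members (25.9%) and in 8.09% of the 27025 genes with a window. Among genes with at least 20 counts it was in 27.5% of 51 members and 11.1% of 11888 genes. Members with it had a median log2 ratio of -0.19 (14 genes) and those without it one of -0.12 (37 genes). Besides the lower calls, Eif3f, Eif3a, Eef2, Eif4e and Eif3k with the E-box had ratios above 1. Eif1b, Eif5a, Eif4h, Eif4g1 and Eef1akmt4 with it had ratios below 1. The share of the E-box among all lower genes was not computed. Myc itself had 30.6 CPM with pyrvinium and 66.6 CPM with DMSO, and its part in these values was not tested. TGATGNAA, a core of the element bound by Atf4 with C/EBP proteins, searched on both strands, was in 2 members, Eef2k and Eif2s3x, which is 3.70% of members and 4.51% of all genes. Letters in a window are a description and show no binding.

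The 10 members known as TOP mRNAs (Eef1a1, Eef1b2, Eef1d, Eef1g, Eef2, Eif3e, Eif3f, Eif3h, Eif3k and Eif4b) had a median log2 ratio of 0.20, the other 56 members one of -0.18, and 90 cytosolic ribosomal protein genes one of 0.26. Intervals were above 1 for 7 TOP members, below 1 for 2 and held 1 for 1. Of the ribosomal protein genes, 80 had intervals above 1 and 6 below 1. The TOP members ranged from -0.11 for Eef1d to 0.36 for Eif3f, an eIF3 subunit with 236 CPM with pyrvinium and 185 CPM with DMSO, and Eif4b, which stimulates the eIF4A helicase, had 128 CPM with pyrvinium and 103 CPM with DMSO. The stretches around the annotated start of the 6 TOP members with a window are shown because a pyrimidine tract at the start of the mRNA defines this class; each has 35 bases before the start and 25 from it, and capitals mark runs of at least 6 pyrimidines. They lie at chr9:78481700-78481759 (minus) for Eef1a1, chr10:81176596-81176655 (plus) for Eef2, chr1:63176796-63176855 (plus) for Eef1b2, chr7:108934380-108934439 (plus) for Eif3f, chr7:28981864-28981923 (minus) for Eif3k and chr15:102073738-102073797 (plus) for Eif4b.
Eef1a1: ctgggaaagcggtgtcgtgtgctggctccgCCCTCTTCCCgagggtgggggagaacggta
Eef2: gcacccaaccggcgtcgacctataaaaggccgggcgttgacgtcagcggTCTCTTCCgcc
Eef1b2: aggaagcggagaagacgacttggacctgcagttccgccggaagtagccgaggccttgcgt
Eif3f: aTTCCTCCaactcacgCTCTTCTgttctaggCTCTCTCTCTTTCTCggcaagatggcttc
Eif3k: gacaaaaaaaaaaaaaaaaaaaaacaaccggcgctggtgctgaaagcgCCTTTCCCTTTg
Eif4b: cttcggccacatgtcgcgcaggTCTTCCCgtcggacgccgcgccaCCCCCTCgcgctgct
Such a run, anywhere in the stretch, was in 5 of these 6 (83.3%), in 53.7% of all members with a window, in 74.6% of ribosomal protein genes and in 54.5% of all genes. The longest run crossed the annotated start in Eef1a1 (10 bases from -5) and Eif3f (15 bases from -4). It began at 14 in Eef2, 13 in Eif3k and -13 in Eif4b (7 bases), and no run in these genes crossed the annotated start. The fixed tract CTCTTTCC, searched on the sense strand only, was in 0 of the 54 members and 1.76% of all genes, and annotated starts can lie off the start used in these cells.

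Within paralog pairs the composition was compared between the libraries as each gene's share of the pair's counts with exact Clopper-Pearson 95% intervals. Eif4a1 made up 79.3% (78.8 to 79.7) of Eif4a1 and Eif4a2 counts with pyrvinium and 88.6% (88.3 to 88.9) with DMSO. Eif4ebp1 made up 94.4% (94.1 to 94.7) of Eif4ebp1 and Eif4ebp2 counts with pyrvinium and 86.2% (85.6 to 86.8) with DMSO. The share of Eif1a in Eif1a and Eif1ax counts was 30.3% (29.2 to 31.5) with pyrvinium and 36.2% (35.1 to 37.3) with DMSO. These 3 pairs had intervals that did not overlap, and neither did those of Eif1 with Eif1b, at 96.8% (96.6 to 97.0) with pyrvinium and 95.5% (95.3 to 95.7) with DMSO, and Eif4g1 with Eif4g3, at 67.3% (65.4 to 69.2) with pyrvinium and 73.0% (71.3 to 74.7) with DMSO. The log2 ratio of Eif4g1 minus that of Eif4g3 was -0.39 over all cells but -0.04 in cells at or below the median S and G2M count. Eif3j1 and Eif3j2 did overlap, at 57.2% (54.2 to 60.2) with pyrvinium and 58.4% (55.6 to 61.1) with DMSO for Eif3j1. In the other 3 pairs the second gene (Eif5a2, Eef1a2 or Eif2s3y) had at most 19 counts in a library. A share compares genes within a library, so it does not depend on the scaling. At these depths counting intervals are narrow. How often pairs of other genes lack overlap was not computed, so the 5 pairs have no share over all genes beside them. Of single genes from 10 CPM up, 32.3% had a ratio interval above 1 and 45.8% one below 1, which is a different measure.

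Of the other lists of translation genes, 3 had no gene past 1.5-fold and 3 had some. Release and recycling factors (8 of 9 with enough counts), regulators of poly(A) binding, eIF4A and eIF4E (12) and mitochondrial translation factors (9) had 0 genes at least 1.5-fold higher and 0 lower, with median log2 ratios of 0.02, -0.09 and -0.23. Of 9 genes that control eIF2 phosphorylation or answer to it, 2 were higher (22.2%, against 7.57% of all genes) and 1 lower (11.1%, against 15.5%). Atf4, the transcription factor translated when eIF2 is phosphorylated and known to act on Eif4ebp1 in other settings, had 244 CPM with pyrvinium and 132 CPM with DMSO. Ppp1cb, a catalytic subunit of protein phosphatase 1, had 110.1 CPM with pyrvinium and 64.0 CPM with DMSO. Ppp1r15a, the stress-induced partner that directs this phosphatase to eIF2, was the lower gene with 23.8 CPM with pyrvinium and 62.9 CPM with DMSO.

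Among 25 mTORC1 pathway genes 4 were higher (16%, against 7.57% of all genes) and 2 lower (8%, against 15.5%). Deptor, an inhibitor bound to mTOR, had 33.2 CPM with pyrvinium and 15.6 CPM with DMSO, and Ddit4, a stress-induced inhibitor of mTORC1, had 99.6 CPM with pyrvinium and 61.4 CPM with DMSO. The other higher genes, Castor1 (2.92 CPM with pyrvinium, 1.40 CPM with DMSO) and Rragd (1.89 CPM with pyrvinium, 0.650 CPM with DMSO), were under 10 CPM. Rps6kb1, the S6 kinase downstream of mTORC1, was lower with 16.4 CPM with pyrvinium and 28.4 CPM with DMSO, as was Mlst8, an mTOR partner, with 4.45 CPM with pyrvinium and 7.90 CPM with DMSO. Inhibitors and activators of the pathway thus appeared among the higher genes. Of 6 genes of selenocysteine insertion and related GTPases, Gtpbp2 was higher (22.7 CPM with pyrvinium, 14.1 CPM with DMSO) and Secisbp2 lower (5.59 CPM with pyrvinium, 8.53 CPM with DMSO). That is 16.7% higher and 16.7% lower, against 7.57% and 15.5% of all genes. Castor1, Rragd, Mlst8 and Secisbp2 are named here after their values were seen.

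Cell by cell, after each cell was thinned to 5000 counts, translation factors had a median of 91 counts (quartiles 81 to 103) in pyrvinium cells and 85 (75 to 95) in DMSO cells. The Eif genes had a median of 46 in both, with quartiles of 39 to 52 in pyrvinium cells and 39 to 54 in DMSO cells. The Eef genes had a median of 45 (38 to 53) in pyrvinium cells and 38 (31 to 46) in DMSO cells. Distributions of single genes overlapped widely. Eif4ebp1 had a median of 2 (1 to 4) in pyrvinium cells and 1 (0 to 2) in DMSO cells, and Eif4a1 one of 3 (2 to 5) in pyrvinium cells and 5 (3 to 7) in DMSO cells. For both genes the quartiles lay on the same side as the medians.

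**Figure D3:**
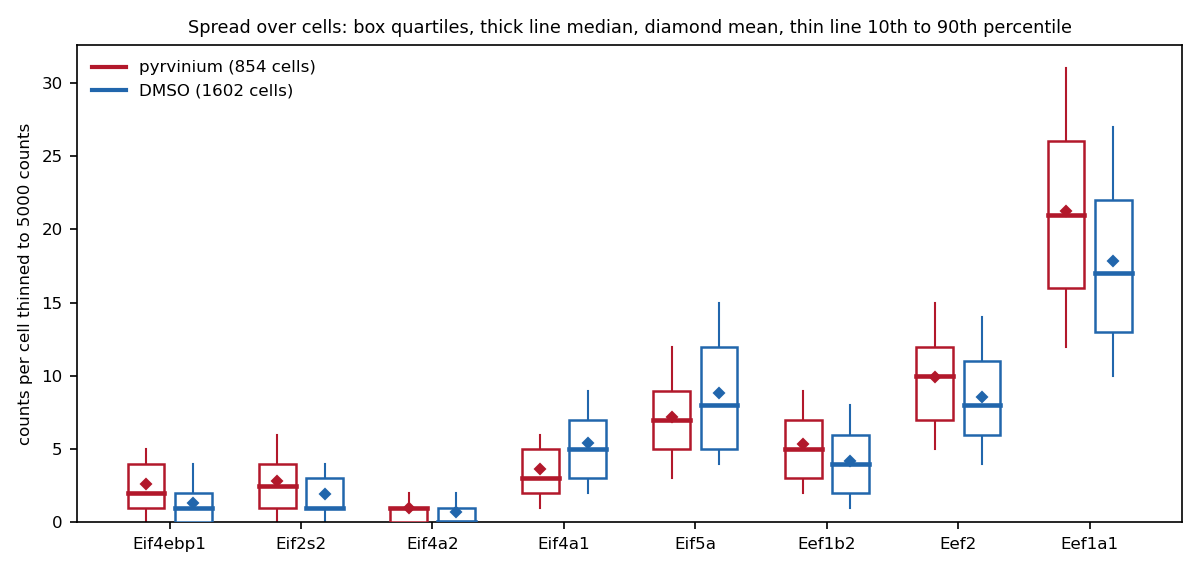
Counts per cell after thinning to 5000 counts for 8 translation factors, with pyrvinium cells (red) left of DMSO cells (blue); boxes are quartiles, thick lines medians, diamonds means and thin lines the 10th to 90th percentile. The box of Eif4a1 sits lower in pyrvinium cells and that of Eef1a1 higher (median 21 with pyrvinium, 17 with DMSO), with wide overlap throughout. For Eif5a the lower quartile is 5 in both, and the upper quartile is 9 with pyrvinium and 12 with DMSO.

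Within a library, cells were compared by their thinned counts of 27 genes of the integrated stress response, a list that holds no member and had 21 genes at least 1.5-fold higher and 1 lower with pyrvinium. The cells of each library were ranked by this count and divided in 3, with ties included. The top part, called stress-high, held 301 pyrvinium cells (median 35046 counts) and 620 DMSO cells (18786 counts), and the bottom part, called stress-low, 315 pyrvinium cells (30596 counts) and 689 DMSO cells (18413 counts). Cells are not replicates, so these values describe the libraries. In the DMSO library Eif4ebp1 had 435 CPM in stress-high and 158 CPM in stress-low cells, a log2 ratio of 1.46. It was the 1 member of 64 at least 1.5-fold higher (6.46% of all genes were), and Eef1aknmt, with 5.44 CPM in stress-high and 8.61 CPM in stress-low cells, was the 1 member lower (4.42% of all genes). In the pyrvinium library Eif4ebp1 had 593 CPM in stress-high and 406 CPM in stress-low cells, a log2 ratio of 0.55. There 4 of 64 members were at least 1.5-fold higher in stress-high cells (4.68% of all genes were), namely Eif1, Eif2s2, Eif3c and Eif4a2, and 3 were lower (11.5%), namely Eef2k, Eif4ebp2 and Eif4enif1. Eif2s2 had 683 CPM in stress-high and 414 CPM in stress-low pyrvinium cells, against 466 CPM in stress-high and 330.1 CPM in stress-low DMSO cells. Eif3c had 188 CPM in stress-high and 114 CPM in stress-low pyrvinium cells, and Eif4a2 had 232 CPM in stress-high and 149 CPM in stress-low ones. Eif1 had 904 CPM in stress-high and 577 CPM in stress-low pyrvinium cells, although its ratio of pyrvinium over DMSO was 0.965. Eef1b2 and Eif3f, with ratios of pyrvinium over DMSO above 1, had log2 ratios of -0.02 and -0.11 between these cells. Of the other members called here, Eif2s2, Eif3c and Eif4a2 also had ratios of pyrvinium over DMSO above 1. Those of Eef2k, Eif4ebp2 and Eif4enif1 were below 1. The match of the orders by stress list and by library over all members was not measured. Eif4a1 differed little between these cells, with 726 CPM in stress-high and 704 CPM in stress-low pyrvinium cells. The difference in Eif4ebp1 between the libraries was 0.45 on the log2 scale in stress-high cells and 1.36 in stress-low cells. These parts were cut within each library and are not matched in stress list counts. Stress-high began at 28 thinned list counts with pyrvinium and 9 with DMSO, and stress-low ended at 19 with pyrvinium and 6 with DMSO.

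**Figure D4:**
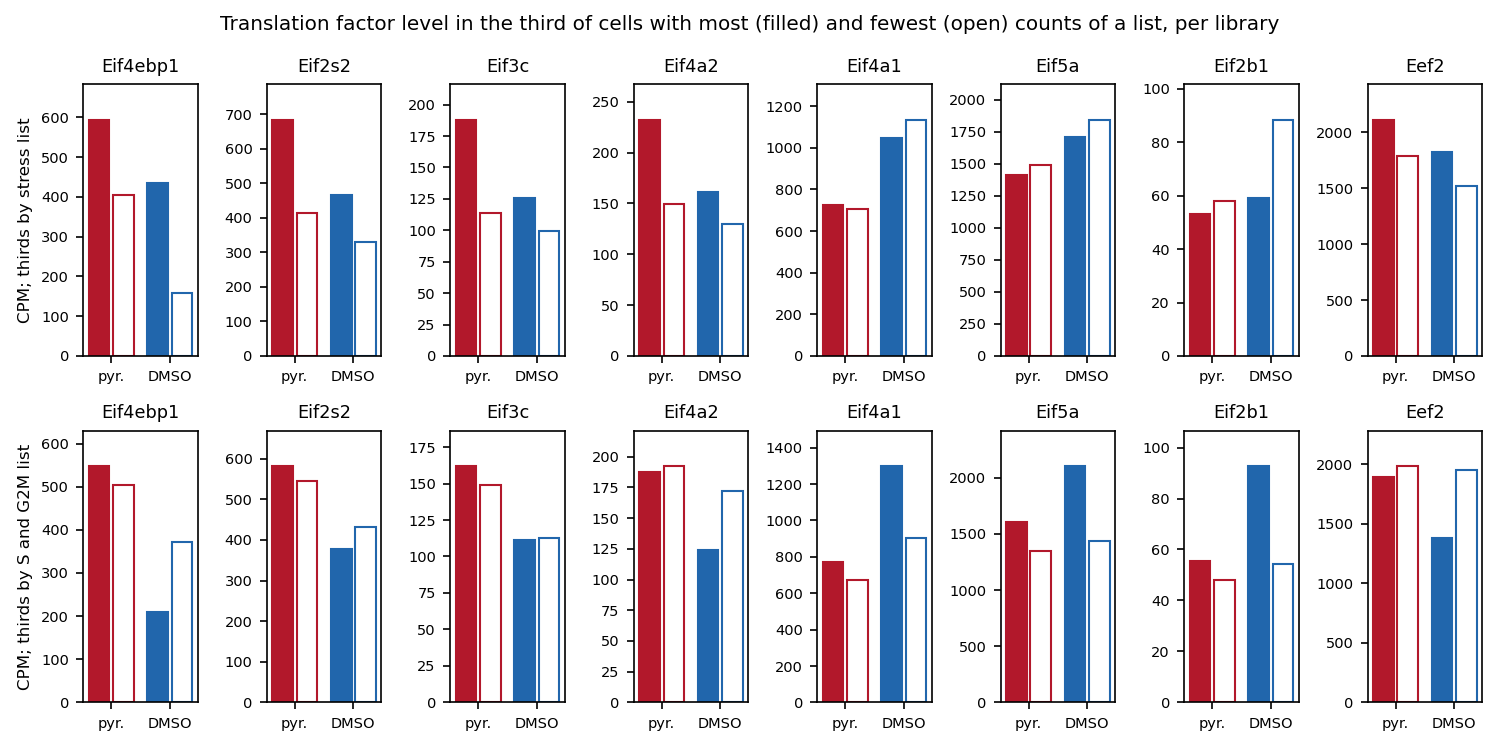
CPM of 8 translation factors in cells with most (filled bars) and fewest (open bars) counts of the stress list (upper row) and of the S and G2M list (lower row), with the pyrvinium library (red) left of the DMSO library (blue). The gap between filled and open bars for Eif4ebp1 by stress list is 435 against 158 CPM in DMSO cells, and the filled bars of Eif4a1, Eif5a and Eif2b1 by S and G2M list stand above the open bars most clearly in DMSO cells.

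A division by the S and G2M list gave members a share of higher calls in the DMSO library close to that of all genes. The cells were divided in 3 by that count in the same way, into 537 cycle-high and 540 cycle-low DMSO cells, with medians of 21048 and 15872 counts. There 12 of 64 members were at least 1.5-fold higher in cycle-high cells (18.8%, against 16.6% of all genes) and 3 lower (4.69%, against 12.3%). Eif1ad had the highest ratio, with 96.7 CPM in cycle-high and 38.8 CPM in cycle-low DMSO cells, and 3 of the 5 eIF2B genes, Eif2b1, Eif2b3 and Eif2b4, were among the 12. Eif2b1 had 92.6 CPM in cycle-high and 54.2 CPM in cycle-low DMSO cells. Under the 1.5-fold limit, Eif4a1 had 1297 CPM in cycle-high and 901 CPM in cycle-low DMSO cells, and Eif5a 2101 CPM in cycle-high and 1432 CPM in cycle-low ones. The 3 lower members were Eif4ebp1, Eif3f and Eef2k, and Eif4ebp1 had 209 CPM in cycle-high and 373 CPM in cycle-low DMSO cells. Eef2 also had fewer counts in cycling cells, with 1380.4 CPM in cycle-high and 1955 CPM in cycle-low DMSO cells. In 292 cycle-high and 376 cycle-low pyrvinium cells, with medians of 36375.5 and 27577 counts, Eif2b1 had 55.6 CPM in cycle-high and 48.0 CPM in cycle-low cells, and Eif4a1 774 CPM in cycle-high and 672 CPM in cycle-low cells. There 1 member, Eif1ad, was higher, with 90.4 CPM in cycle-high and 55.2 CPM in cycle-low cells (7.7% of all genes were higher), and 0 were lower (1.97%). Pyrvinium over DMSO, Eif2b1 had a log2 ratio of -0.74 in cycle-high cells and -0.18 in cycle-low cells, Eef2 one of 0.45 and 0.02, and Eif4ebp1 one of 1.39 and 0.43. These 3 ratios were farther from 0 among cycle-high cells, while that of Eef2k was -0.60 in cycle-high and -1.37 in cycle-low cells. Here too the parts were cut within each library and are not matched. Cycle-high began at 7 thinned list counts with pyrvinium and 17 with DMSO, and cycle-low ended at 3 with pyrvinium and 5 with DMSO.

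**Figure D5:**
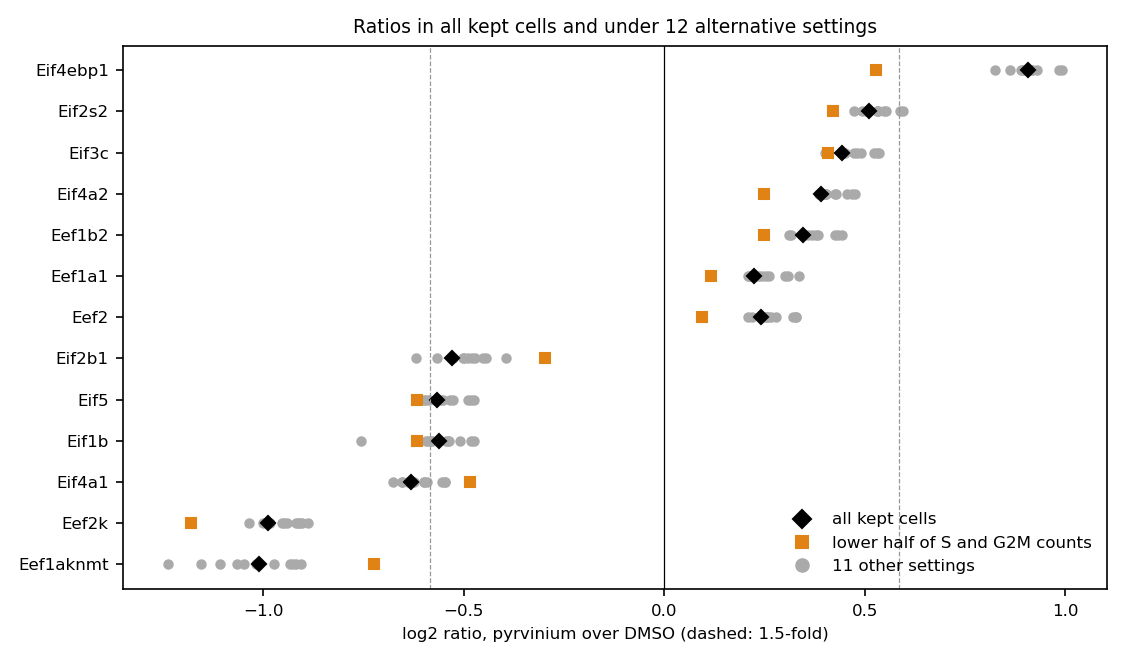
Log2 ratio of pyrvinium over DMSO for 13 translation factors in all kept cells (black diamonds), in the cells at or below the median S and G2M count (orange squares) and under 11 other settings (grey), with dashed lines at 1.5-fold. Eif4ebp1 is at 0.53 in the low S and G2M cells and lies to the right of the upper dashed line in the other 11 settings.

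In free RNA these genes had the same order between the libraries as in cells. In barcodes with 100 to 500 counts Eif4ebp1 had 469.6 CPM with pyrvinium and 270.4 CPM with DMSO, Eif2s2 had 808 CPM with pyrvinium and 554 CPM with DMSO, and Eif4a1 had 828 CPM with pyrvinium and 1236 CPM with DMSO. Its part in the cell values was not tested beyond the subtraction of 10% of each profile. Mitochondrial genes took 1.63% of counts with pyrvinium and 2.57% with DMSO, and ribosomal protein genes 30.7% with pyrvinium and 25.9% with DMSO.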

How the data were processed

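Cells of pyrvinium- and DMSO-treated organoids were captured with the PIPseq method of Fluent BioSciences, 1 library each, per the labels' protocols. Per the submitters' processing notes, Partek and genome build GRCm39 were used. The authors deposited whole-number counts per gene and barcode, not normalized. The aligner, annotation, strand setting and the nature of a count (read or molecule) are not stated in these sources. The files list no processed pseudogenes, so reads of near-identical copies (Eef1a1, Eif4a1, Eif5a and the Eif1ad genes have such relatives) are uncertain.

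A barcode was a cell at 13100 counts or more with pyrvinium and 9320 or more with DMSO, 1/10 of the 99th percentile among the 2000 deepest barcodes. At least 500 genes and at most 20% mitochondrial counts were also required, which removed 0 barcodes. Doublets were kept. Counts were summed over cells and scaled to CPM, with exact Poisson intervals for levels and exact conditional binomial intervals for ratios. A gene counted as higher or lower at 1.5-fold or more with the whole interval on that side of 1 and at least 20 counts in the libraries together. Cells were thinned at random to 5000 counts, which all reached. Fewer cells of a type and less RNA per cell cannot be told apart in the sums. On Poisson counts simulated for 15586 genes of pyrvinium over DMSO, 95.58% of intervals held the true ratio. Such counts vary by counting error only, so this says nothing about variation between cells or libraries. Python 3.11.15, numpy 2.4.6, pandas 2.3.3 and scipy 1.17.1 were used. Promoter windows are from RefSeq (GRCm38.p6).

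The members and lists were chosen with earlier results of these data known. Named members are those past 1.5-fold, the most abundant, highest and lowest of each factor group, the paralog pairs, and members of other lists past 1.5-fold with at least 10 CPM; others are given by counts and range. Alternatives varied the barcodes taken as cells, doublets, scaling, free RNA, cell cycle, fold limit and minimum count. A further allele that both groups carry is not reported here.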

Additional observations from a re-analysis of the deposited data

How the results depend on the processing

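Under 12 settings of cells, scaling and free RNA, 48 of 66 members kept their direction, and of 792 recomputed values 603 moved by less than the counting interval and 189 by more. Eef2k (log2 ratio -1.18 to -0.89) and Eef1aknmt (-1.24 to -0.72) stayed past 1.5-fold in 12 of 12, Eif4ebp1 (0.53 to 0.99) in 11 and Eif4a1 (-0.68 to -0.48) in 8; Eif5a2 (-2.55 to -0.85) kept its interval below 1 in 2. With mitochondrial and ribosomal genes out of the scaling, or scaling to the median of ratios, the members' median was -0.0279 and -0.0206. In each, 2 members were higher (Eif2s2 and Eif4ebp1) and 2 lower (Eef1aknmt and Eef2k). Of all genes, 9.79% were higher and 12.7% lower in the first of these settings. In the second, 10% of all genes were higher and 12.5% lower. In cells at or below the median S and G2M count the members' median was 0.0296 and that of all genes -0.0904. There 0 members were higher (6.78% of all genes) and 4 lower (15.6%). After subtraction of 10% free RNA (barcodes of 10 to 100 counts) 2 were higher (11.5% of all genes) and 8 lower (20.1%). At a fold limit of 5 to 4, 7 were higher (14.5% of all genes) and 19 lower (25.3%), and at 2-fold, 0 were higher (3.34%) and 2 lower (6.73%). Each cause was not tested. In the other settings the count stayed at 1 higher (4.87% to 8.49% of all genes) and 3 to 5 lower (9.87% to 16.3%). The TOP members' median ranged from 0.12 to 0.32 and that of eIF2B from -0.44 to -0.10. Less the median of all genes in the same setting, these ranges were 0.21 to 0.37 and -0.37 to -0.01. Depth limits the sparse members, such as Eif5a2. No paired analysis was possible because each group has 1 library.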
